A study of Mus musculus with 6 samples.

Results

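The genes described here lie around Plxnb1 on mouse chromosome 9 (GRCm38), in the stretch that runs from 10 Mb before the gene to 10 Mb after it, between 99095389 and 119119917. Of 533 annotated genes of the count table that overlap this stretch, 270 had 2 counts or more in 5 or 6 of the libraries. Plxnb1 and 13 genes of the plexin, semaphorin, hyaluronidase, matrix and other families named in the rule were left out, and the other 256 genes are called members here, out of 22318 genes tested. The rule used position, a count minimum and these names. Position and the count minimum did not use the difference between the genotypes. The members were chosen with earlier results of these data known, and some of the genes left out were called. The shares below are therefore not those of the whole stretch. A further 263 genes of the stretch were under the count minimum, and 186 of these had 0 counts in all 6 libraries.

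The data are bulk RNA-seq of poly(A) RNA from primary Schwann cells (SCs), the glia that wrap peripheral axons. The cells came from adult mouse dorsal root ganglia and were kept in medium with forskolin and neuregulin, Thy1-positive fibroblasts were removed with magnetic beads, and each culture is 1 library. 3 cultures were WT and 3 were from mice homozygous for the Plxnb1tm1Matl allele, a gene trap that inserts a transmembrane-lacZ-neo cassette into Plxnb1. The sample labels call them PB1-WT and PB1-KO, and the mouse lines were kept on a C57BL/6 background. The strain of the stem cells that were targeted, the number of backcrosses, the sex of the mice and whether the cultures came from littermates are not given for these libraries in the sources used here. The p-values measure the spread between these cultures.

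Plexin-B1 is a cell surface receptor for semaphorins. A gene close to a targeted locus is inherited together with it, because few recombinations fall between neighbours, so a homozygous mutant can carry the linked alleles of the founder along with the trap. Sequence differences between the genotypes were not analysed here, and in this design the loss of Plxnb1 and any linked difference cannot be told apart. The members have no shared function. Among them are genes of DNA repair, metabolism, signalling, the cell surface and immunity, and the densest stretch lies on the side of lower coordinates, where the tumour suppressor neighbourhood of Rassf1 is found.

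The sequences below are those to which the results return. The first is the stretch between the starts of 3000002C10Rik and Nme6, which stand back to back and were both called lower by DESeq2 (chr9:109832707-109832748, plus strand). It is RefSeq sequence of GRCm38.p6.
3000002C10Rik and Nme6: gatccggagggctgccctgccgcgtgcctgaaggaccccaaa

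The stretch was searched on both strands for CCAAT, for the GC box GGGCGG and for TATAAA. Its 42 bases held no match to the 3 motifs, which stand in 6.93%, 13.3% and 3.13% of 32851 stretches of that length directly before a RefSeq start. The stretch shown lies between GENCODE starts, and the RefSeq start of Nme6 is farther on, at 109832794. These shares are therefore of stretches placed otherwise. The stretch shown had 3 CG dinucleotides and a GC content of 69.0%.

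The second sequence is the mature miR-711, whose gene Mir711 lies inside Col7a1 and was also called lower by DESeq2 (chr9:108969970-108969991, plus strand, RefSeq GRCm38.p6). Capitals mark the seed, bases 2 to 8. Poly(A) libraries do not capture mature miRNAs, so the counts at this locus are of longer RNA, and the exon of Col7a1 on the same strand overlaps it.
mmu-miR-711: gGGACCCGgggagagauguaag

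Total counts lay between 59252048 and 77280964 per library, so that 3 counts equal 0.0383 to 0.0513 CPM, in counts scaled by the TMM method to library size. This limit counts sampling error alone. The members took between 0.963% and 0.983% of the counts. Plxnb1 itself measured 61.8, 45.4 and 96.4 CPM in the WT cultures and 13.1, 16.6 and 18.6 CPM in the Plxnb1-/- cultures. Here and below, the values of a genotype are in the order of replicates 1, 2 and 3. The ranges of the genotypes for Plxnb1 did not overlap.

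PB1-KO replicate 3 stood apart in genes of the sex chromosomes. Xist, the RNA of the inactive X, measured 11.6 CPM there and between 218 and 260 CPM in the other 5 libraries. Ddx3y, a gene of the Y chromosome, measured 77.6 CPM in that library, 2.68 and 3.57 CPM in PB1-KO replicates 1 and 2, and had 0 counts in all 3 WT libraries. The part of this difference in the results was not tested, and the counts below are also given without PB1-KO replicate 3.

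Marker genes of several cell types also differed between the genotypes. The summed level of 7 Schwann cell markers was between 2184 and 2599 CPM in WT and between 2645 and 2989 CPM in Plxnb1-/- cultures, and that of 5 fibroblast markers was between 533 and 788 CPM in WT and between 492 and 511 CPM in Plxnb1-/- cultures. For 5 neuron markers it was 146 to 160 CPM against 161 to 181 CPM, for 5 macrophage markers 23.0 to 25.3 CPM against 26.6 to 29.3 CPM, and for 3 satellite glia markers 696 to 815 CPM against 841 to 864 CPM. Single genes gave most of some sums. Over all libraries, Tubb3 was at 127 to 153 CPM in the neuron list and Kcnj10 at 639 to 798 CPM in the satellite glia list. Thy1, the target of the bead removal, was at 384 to 652 CPM in the fibroblast list. Endothelial and mural markers overlapped between the genotypes. Singly, 3 Schwann cell, 2 neuron, 2 macrophage and 1 satellite glia marker lay higher and 2 fibroblast markers lower without overlap, and no marker was at 0. Of the markers, S100b was low, between 7.09 and 8.22 CPM, and Dpt of the fibroblast list stayed between 0.386 and 0.781 CPM. The part of these shifts in the results was not tested, and in bulk RNA fewer cells of a type and less RNA per cell cannot be told apart.

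Within the 10 Mb on either side of Plxnb1, more members were lower than higher in Plxnb1-/- SCs. Mapkapk3, a kinase activated by p38, and Il20rb, a cytokine receptor chain, were among those called lower by DESeq2, with log2 fold changes of −1.27 and −1.22. Nudt16, a hydrolase of inosine diphosphate, was among those called higher, at 0.66. A call needed a log2 fold change of more than 0.25 in either direction and an adjusted p under 0.05. edgeR's quasi-likelihood test, with Benjamini-Hochberg adjustment over all tested genes, called 1 member lower and 0 higher. Over all tested genes it called 0.0358%, of which 0.0314% were lower and 0.00448% higher. DESeq2 on the same genes called 12 members lower and 3 higher among the 173 to which it gave an adjusted p, which is 6.94% lower and 1.73% higher. Over all genes with an adjusted p, DESeq2 called 1.21% lower and 1.03% higher. At an unadjusted edgeR p below 0.05 stood 38 members with lower and 25 with higher values, 14.8% and 9.77% of the members, against 6.78% and 6.95% of all tested genes.

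Without the Plxnb1-/- culture that stood apart in Xist, edgeR again called 1 member lower and 0 higher, where it called 0.0176% of all tested genes lower and 0 higher. DESeq2 then called 7 lower and 1 higher of the 170 members with an adjusted p, which is 4.12% and 0.588%, against 0.237% and 0.108% of all genes with an adjusted p in that fit. Without WT replicate 2, the largest change that leaving out a library made to edgeR's calls, edgeR called 7 members lower and 2 higher of the 261 tested, which is 2.68% and 0.766%, against 0.0746% and 0.0351% of all genes in that fit. Among them were Slc35g2, Abhd14a, Abhd14b, Gm28959, Parp3 and Mapkapk3, which were lower, and Nudt16 and Hemk1, which were higher.

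The medians lay closer together than these counts. The median log2 fold change was −0.02 for the members and 0.005 for all tested genes, with 140 members below 0 and 116 above it. In 49 members (19.1%) all 3 Plxnb1-/- cultures lay below all 3 WT cultures, against 10.4% of all tested genes. In 23 members (8.98%) all 3 lay above, against 9.3% of all tested genes. Without PB1-KO replicate 3 the shares of members were 21.1% lower and 10.7% higher, against 13.5% and 12.5% of all tested genes in that fit. Further out on chromosome 9, from 10 to 20 Mb away from Plxnb1, 16 of 181 tested genes (8.84%) lay lower and 14 (7.73%) higher without overlap. There DESeq2 called 3 lower and 1 higher of the 108 genes with an adjusted p, which is 2.78% and 0.926%. Of the 181 genes edgeR called 1 lower (0.552%) and 0 higher.

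**Figure D1:**
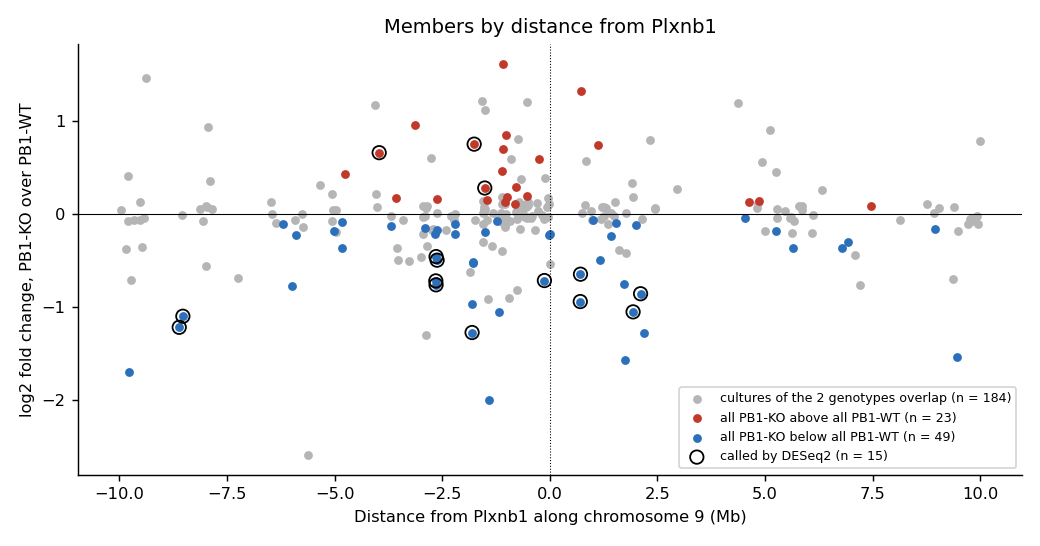
Each point is 1 of the 256 members, placed by its distance from Plxnb1 in Mb (negative for lower coordinates) and its log2 fold change, Plxnb1-/- (PB1-KO) over WT (PB1-WT). Blue points (49) have all 3 PB1-KO cultures below all 3 PB1-WT cultures, red points (23) have all above, and rings mark the 15 members called by DESeq2.

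Over both sides, the members nearest to Plxnb1 did not have the largest shares without overlap. Within 1 Mb of the gene, 6 of 54 members (11.1%) lay lower without overlap and 5 (9.26%) higher. Between 1 and 2 Mb, 15 of 66 (22.7%) lay lower and 10 (15.2%) higher, and between 2 and 5 Mb, 15 of 59 (25.4%) lay lower and 7 (11.9%) higher. Between 5 and 10 Mb, 13 of 77 (16.9%) lay lower and 1 (1.30%) higher. Without PB1-KO replicate 3, the shares lower in the same order were 12.96%, 24.2%, 27.1% and 19.5%. The sides differed near the gene, where few members lie on the side of higher coordinates. Within 1 Mb, 3 of 9 members (33.3%) lay lower and 1 (11.1%) higher without overlap on that side, and 3 of 45 (6.67%) lay lower and 4 (8.89%) higher on the side of lower coordinates. The median absolute log2 fold change over both sides was 0.10, 0.15, 0.17 and 0.11 from the nearest to the farthest of these stretches. Over all tested genes it was 0.12, so the nearest and the farthest stretch lay under that value.

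**Figure D2:**
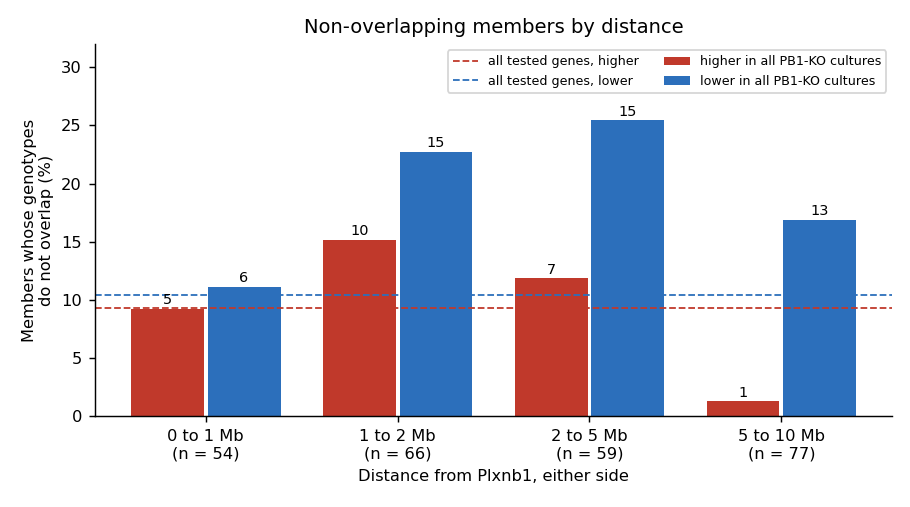
Bars give the percent of members in each distance range whose 3 PB1-KO cultures all lay above (red) or below (blue) the 3 PB1-WT cultures, with the number of members on each bar. Dashed lines give the same shares over all tested genes, 9.3% higher and 10.4% lower, and the lower bars exceed their line most between 1 and 5 Mb.

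Over the members, Spearman's rho between absolute distance and absolute log2 fold change was 0.04 (n = 256 genes), and that between mean CPM and absolute log2 fold change was −0.61, both as descriptions of genes that share the same 6 libraries. On the side of lower coordinates, 30 of 172 members (17.4%) lay lower without overlap and 18 (10.5%) higher, with 8 and 3 called by DESeq2. On the side of higher coordinates, 19 of 84 (22.6%) lay lower and 5 (5.95%) higher, with 4 and 0 called by DESeq2. All 3 raised calls were therefore on the side of lower coordinates, between 1.51 and 3.96 Mb from Plxnb1.

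Taken each culture apart, the members leaned the same way in the replicates, though not equally. PB1-KO replicate 1 had 94 of 256 members (36.7%) below all 3 WT cultures and 50 (19.5%) above, where all tested genes gave 26.7% and 26.4%. PB1-KO replicate 2 had 81 (31.6%) below and 71 (27.7%) above, against 26.9% and 28.4%. PB1-KO replicate 3 had 83 (32.4%) below and 79 (30.9%) above, against 29.5% and 31.0%. In each of the 3 Plxnb1-/- cultures the share of members below WT was larger than that of all genes, most so in replicate 1 and least so in replicate 3. The 49 members lower without overlap are counted in each of the 3, so these shares are not independent.

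Read from the WT side, the same 6 libraries are compared in reverse, which is not a second observation. A member lower without overlap is here counted as above in all 3 WT cultures. WT replicate 1 had 97 members (37.9%) above all 3 Plxnb1-/- cultures and 69 (27.0%) below, against 26.6% and 26.7% of all tested genes. WT replicate 3 had 89 (34.8%) above and 60 (23.4%) below, against 27.1% and 26.7%. WT replicate 2 had 94 (36.7%) above and 87 (34.0%) below, against 32.7% and 34.2%, so more of its genes lay outside the other genotype's range in either direction.

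**Figure D3:**
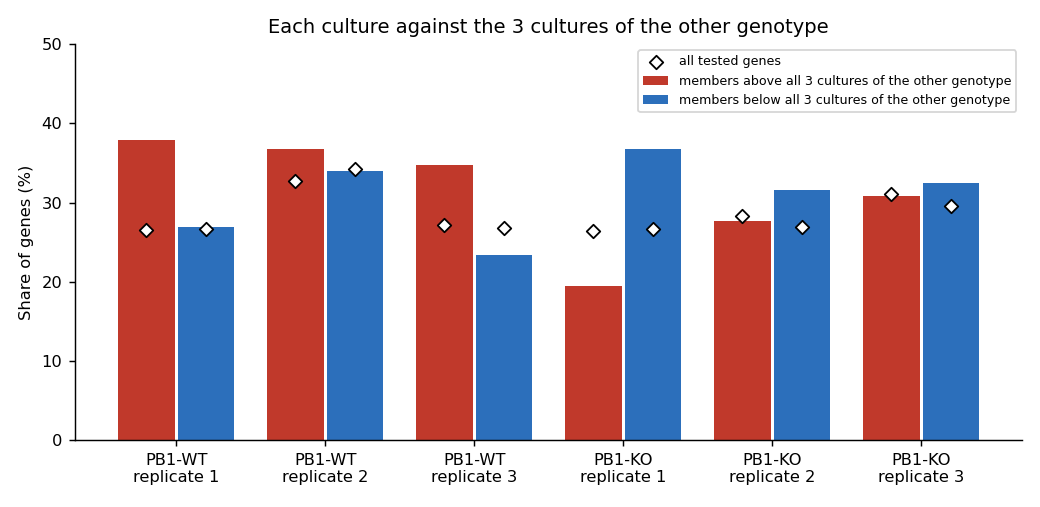
For each culture, bars give the percent of the 256 members above (red) or below (blue) all 3 cultures of the other genotype, and diamonds give the same over all tested genes. In PB1-KO replicate 1 the bar for members below reaches 36.7% and its diamond stands at 26.7%.

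Among genes of DNA repair, Parp3, a mono-ADP-ribosyltransferase that acts at DNA breaks, lies 2.62 Mb away on the side of lower coordinates. It measured 87.7, 73.4 and 92.8 CPM in WT and 56.9, 60.4 and 63.1 CPM in the Plxnb1-/- cultures, without overlap. DESeq2 called it lower (adjusted p = 2.55e-05), and edgeR gave a log2 fold change of −0.49 with an adjusted p of 0.168. Its exons overlap those of Rrp9 on the opposite strand, a gene of ribosomal RNA processing whose log2 fold change was −0.17.

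Of all 20 tested members of the list for DNA repair, replication and cell division, 5 lay lower without overlap, Parp3 and Nme6 among them, and DESeq2 called 0 higher. The median log2 fold change of this list was 0.004. Trex1, an exonuclease that degrades cytosolic DNA, stood highest in it at 0.18 (adjusted p = 0.538 by edgeR), and its exons overlap Atrip on the same strand.

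Nme6, of the nucleoside diphosphate kinase family, and 3000002C10Rik share the stretch shown above, with starts 43 bases apart, 0.71 Mb from Plxnb1. Nme6 measured 8.05, 8.05 and 8.95 CPM in WT and 5.92, 4.65 and 5.45 CPM in the Plxnb1-/- cultures. The genotypes did not overlap, and DESeq2 called it lower (adjusted p = 5.67e-05, log2 fold change −0.64 by edgeR with adjusted p = 0.168). 3000002C10Rik, a transcribed pseudogene, measured 1.49, 1.44 and 1.07 CPM in WT and 0.716, 0.538 and 0.822 CPM in Plxnb1-/- cultures. DESeq2 called it lower too (adjusted p = 0.0265), but it lost the call in each of the 3 fits without 1 library that gave it an adjusted p (0.0868 to 0.221, without PB1-KO replicate 1 or 2 or WT replicate 2). Over 831 bases its transcript matches Gapdh at 95.8% identity, and reads of these genes are not told apart there.

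The pairs that start back to back did not move together as a rule. Of 11 such pairs within 1000 bases, all made of 2 members, 6 had log2 fold changes of the same sign and 5 of opposite sign. In 2 pairs at least 1 partner was called by DESeq2, and in 1 of these, 3000002C10Rik with Nme6, both were. Gm28959, an antisense RNA, and Pcbp4, which encodes an RNA-binding protein, went apart at −0.76 and 0.17, with starts 373 bases apart. 4930535L15Rik, with 2, 3 and 1 counts in WT and 9, 5 and 8 counts in Plxnb1-/- cultures, and Ip6k1, an inositol hexakisphosphate kinase, both lay higher without overlap, and neither was called.

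**Figure D4:**
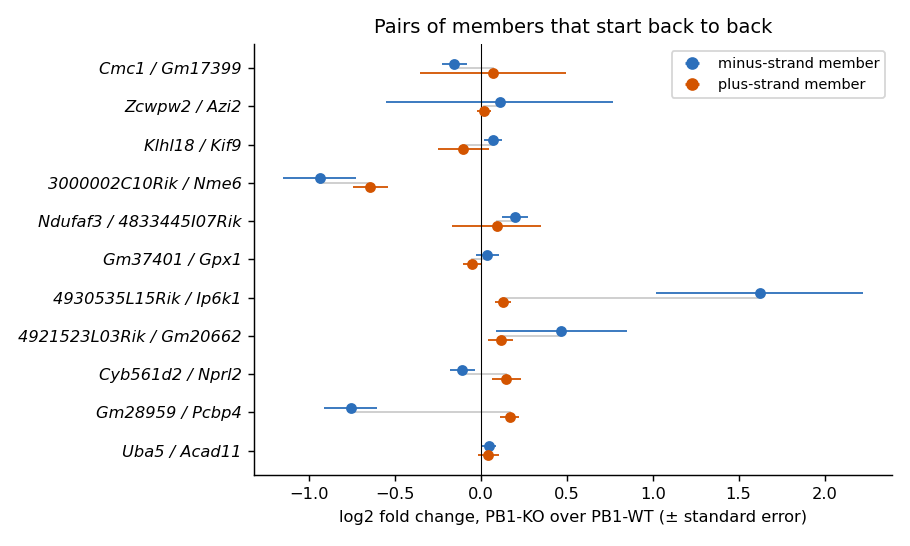
Log2 fold changes (PB1-KO over PB1-WT, with the standard error as a bar) of 11 pairs of members whose starts lie back to back, the minus-strand member in blue and the plus-strand member in orange. 3000002C10Rik and Nme6 both lie below 0, and Gm28959 at −0.76 stands far from Pcbp4 at 0.17.

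Among neighbours 2.6 Mb from Plxnb1, Abhd14a, Abhd14b and Gm28959 were lower, and Pcbp4 lay higher without overlap at a log2 fold change of 0.17. Abhd14a, which encodes a protein of the alpha/beta hydrolase fold, measured 26.1, 20.1 and 26.0 CPM in WT and 14.0, 16.0 and 14.0 CPM in the Plxnb1-/- cultures. DESeq2 called it lower (adjusted p = 2.39e-07), and edgeR gave −0.72 (adjusted p = 0.113). Abhd14b, of the same fold, measured 10.9, 8.25 and 11.0 CPM against 6.99, 7.52 and 7.56 CPM, and its DESeq2 call (adjusted p = 0.0194) was lost when any 1 library other than WT replicate 2 was left out (adjusted p = 0.203 without PB1-KO replicate 3). Gm28959 measured 4.03, 2.78 and 3.80 CPM against 1.93, 2.21 and 2.15 CPM (DESeq2 adjusted p = 0.00365, and 0.0646 and 0.0649 without PB1-KO or WT replicate 3). Abhd14b overlaps Abhd14a and Gm28959 on the opposite strand. The strand setting of the counting is not given in the sources used here, so reads in the overlaps are not told apart. These genes lie near Rpl29, one of the genes left out by the rule.

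Nearer to Plxnb1, Mapkapk3 and Hemk1 moved in opposite directions although they are 1.81 and 1.76 Mb away from it. Mapkapk3, a kinase activated by p38, measured 19.0, 10.7 and 17.6 CPM in WT and 6.65, 6.44 and 6.52 CPM in the Plxnb1-/- cultures. Its Plxnb1-/- values lay within 0.21 CPM of each other, and WT replicate 2 lay nearest to them. DESeq2 called it lower (adjusted p = 3.72e-10), and edgeR's log2 fold change of −1.27 had an adjusted p of 0.113, which became 6.09e-05 without WT replicate 2. Hemk1, which methylates translation release factors, measured 5.56, 9.19 and 5.18 CPM in WT and 11.96, 10.2 and 11.3 CPM in Plxnb1-/- cultures, again with WT replicate 2 nearest to the other genotype. DESeq2 called it higher (adjusted p = 0.00595), and this call was lost without PB1-KO replicate 1 or 3 or WT replicate 3 (adjusted p of at most 0.148, without PB1-KO replicate 3).

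The other raised calls were Nudt16 and Naa80. Nudt16, a hydrolase of inosine diphosphate and of RNA caps, lies 3.96 Mb away and measured 8.44, 11.2 and 9.79 CPM in WT and 14.6, 17.3 and 14.6 CPM in the Plxnb1-/- cultures. Without overlap between the genotypes, its log2 fold change was 0.66 (adjusted p = 0.168 by edgeR), and DESeq2 called it higher (adjusted p = 1.58e-05). Naa80, the enzyme that acetylates the end of actin, measured 37.9, 34.9 and 39.5 CPM against 42.1, 47.9 and 46.7 CPM (DESeq2 adjusted p = 0.0194). The call was lost without PB1-KO replicate 2 or 3 or WT replicate 2 (adjusted p of at most 0.346, without PB1-KO replicate 3). Its exons overlap Hyal1 and Hyal3 on the same strand, which the rule leaves out and DESeq2 also called higher, so reads of these genes are not told apart.

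**Figure D5:**
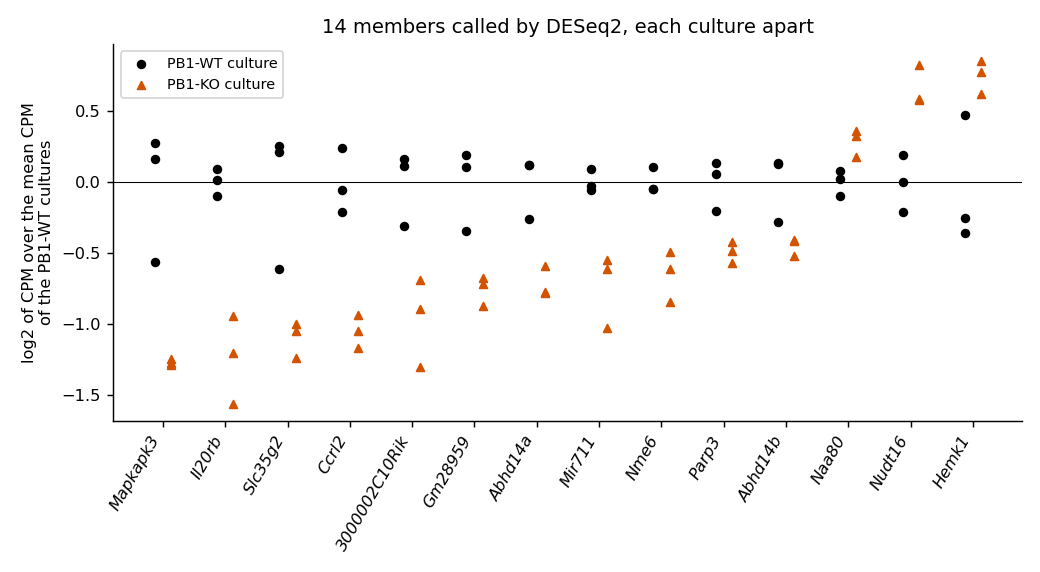
Members called by DESeq2 (14 are drawn), ordered by log2 fold change. Each point is 1 culture (PB1-WT circles, PB1-KO triangles), as log2 of its CPM over the mean CPM of the 3 PB1-WT cultures. In all 14 the genotypes do not overlap, and WT replicate 2 gives the low circle of Mapkapk3 and Slc35g2 and the high circle of Hemk1.

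Signalling receptors of the immune and secreted list included further falls by DESeq2. Il20rb, a receptor chain for cytokines of the interleukin-20 family, lies 8.61 Mb from Plxnb1 and measured 1.83, 2.08 and 1.98 CPM in WT and 0.665, 1.02 and 0.851 CPM in the Plxnb1-/- cultures (DESeq2 adjusted p = 3.62e-05, edgeR log2 fold change −1.22 with adjusted p = 0.113). Ccrl2, an atypical receptor that binds chemerin, lies 1.93 Mb away on the other side and measured 1.45, 1.62 and 1.99 CPM against 0.882, 0.814 and 0.750 CPM (DESeq2 adjusted p = 0.0015, and 0.0573 without PB1-KO replicate 3). Of the 12 tested members of that list, 4 lay lower and 3 higher without overlap, and its median log2 fold change was 0.15. Camp, the antimicrobial peptide cathelicidin, stood highest at 1.32 (adjusted p = 0.339 by edgeR), from levels of 0.0313 to 0.141 CPM in WT and 0.153 to 0.359 CPM in Plxnb1-/- cultures.

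Slc35g2, a solute carrier, lies 8.52 Mb from Plxnb1 and measured 5.88, 3.31 and 6.06 CPM in WT and 2.45, 2.54 and 2.15 CPM in the Plxnb1-/- cultures. DESeq2 called it lower (adjusted p = 0.000118), and edgeR gave −1.10 (adjusted p = 0.235). Slc35g2 and Il20rb were the called members farthest from Plxnb1. Nck1, an adaptor of receptor signalling that lies between them, measured 27.8, 26.8 and 26.7 CPM in WT and 28.9, 26.4 and 25.2 CPM in the Plxnb1-/- cultures, with overlap and a log2 fold change of −0.011 (adjusted p = 0.954 by edgeR). Mir711 measured 3.34, 3.07 and 3.02 CPM against 2.15, 2.06 and 1.54 CPM (DESeq2 adjusted p = 0.00595, and 0.162 without PB1-KO replicate 3). Its log2 fold change of −0.71 was the same to 2 decimals as that of Col7a1, the host gene, whose reads it shares.

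Of the 15 members called by DESeq2, 7 were called with every library left out in turn, among them Mapkapk3, Slc35g2, Abhd14a, Nme6, Parp3 and Nudt16. Il20rb was called in each of the 5 such fits that gave it an adjusted p. The same share was not counted over all genes called by DESeq2, and these fits share libraries with the one that made the list.

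Of the 5 members nearest to Plxnb1 on each side, Nme6 and 3000002C10Rik were called by DESeq2 and the others by neither tool. Ccdc51, a subunit of a mitochondrial potassium channel that ends 0.0029 Mb before Plxnb1, measured 6.88, 5.48 and 5.48 CPM in WT and 5.30, 5.19 and 4.90 CPM in the Plxnb1-/- cultures, lower without overlap at −0.21 (adjusted p = 0.425 by edgeR). Tma7, associated with the translation machinery, lies 0.0128 Mb away and measured 44.5, 45.9 and 43.3 CPM against 37.5, 39.4 and 37.7 CPM. Its DESeq2 adjusted p was 0.018, but its log2 fold change of −0.22 missed the cutoff, its exons overlap Ccdc51 on the opposite strand, and copies elsewhere in the genome such as Tma7-ps match it at 99.0% identity over 195 bases.

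Atrip, the partner of the ATR checkpoint kinase, was at 0.11 (adjusted p = 0.469 by edgeR), from 18.9, 20.4 and 21.3 CPM in WT and 21.0, 21.9 and 22.5 CPM in Plxnb1-/- cultures. Gm7628, an antisense gene that overlaps Plxnb1 itself, measured 0.422, 0.342 and 0.833 CPM against 0.256, 0.359 and 0.505 CPM, with overlap. On the far side, Cdc25a, a phosphatase of the cell cycle, and Map4, a microtubule-associated protein, had log2 fold changes of 0.02 and 0.10 (adjusted p = 0.931 and 0.401 by edgeR).

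The members most abundant per exon length differed by small amounts. Gnai2, an inhibitory G protein subunit, was highest at 169 RPKM over all libraries and measured 605, 600 and 613 CPM in WT and 653, 684 and 687 CPM in the Plxnb1-/- cultures. It lay higher without overlap at a log2 fold change of 0.15 (DESeq2 adjusted p = 0.0449, under the fold cutoff). Gpx1, which reduces hydrogen peroxide, was at 139 RPKM and overlapped between the genotypes at −0.05. Several more members lay higher without overlap by small amounts and were not called, such as Atp2c1, the calcium and manganese pump of the Golgi, at 0.18, Apeh, a peptidase that removes acetylated amino acids, at 0.18, and Clasp2, which binds microtubule ends, at 0.13.

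Larger but fainter differences stood at low counts. Col6a5, a chain of collagen VI, was at 0.96 (0.172 to 0.268 CPM in WT, 0.371 to 0.510 CPM in Plxnb1-/- cultures), Cdhr4, a cadherin-related gene whose exons overlap 4 other genes, at 0.70, and Celsr3, a seven-pass cadherin, at 0.59, each without overlap and without a call. Gnat1, the transducin of rods, had 8, 6 and 8 counts in WT and 4, 2 and 0 counts in the Plxnb1-/- cultures. Bfsp2, a lens filament gene, had 14, 2 and 24 counts in WT and 0, 5 and 2 counts in Plxnb1-/- cultures, which overlap. Trank1 had 5, 2 and 2 counts against 2, 2 and 0.

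The remaining groups of members are given as counts. Over all tested genes, 10.4% lay lower and 9.3% higher without overlap, and DESeq2 called 1.21% lower and 1.03% higher. No list was tested against these shares, and some genes are in more than 1 list, such as Nme6 and Ccdc51. In the list for mitochondria and metabolism, 6 of 28 members lay lower and 6 higher without overlap, 3 were called lower by DESeq2 (Abhd14a, Abhd14b and Nme6) and 1 higher (Nudt16), and the median log2 fold change was 0.01. In that for kinases, phosphatases and small G protein signalling, 6 of 26 lay lower and 3 higher, 1 was called lower (Mapkapk3), and the median was −0.05. Mst1, a growth factor also called macrophage stimulating protein, stood highest there at 0.86 (adjusted p = 0.419 by edgeR), while Mst1r, its receptor and a member of the cell surface list, stood at −1.05 (adjusted p = 0.321 by edgeR). The counts of Mst1 were too low for edgeR's own filter (filterByExpr), and DESeq2 gave neither Mst1 nor Mst1r an adjusted p.

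Genes of the endoplasmic reticulum, Golgi and vesicle traffic had 6 of 26 lower and 1 higher without overlap, with 1 called lower (Slc35g2) and a median of −0.04. In the list for the cell surface, adhesion and matrix, 3 of 17 lay lower and 3 higher and none was called by DESeq2, with Cldn18, a claudin of tight junctions, highest at 1.47 (adjusted p = 0.338 by edgeR). The counts of Cldn18 were also too low for edgeR's own filter, and DESeq2 gave it no adjusted p. Of 19 cytoskeletal members, 1 lay lower and 1 higher, and 0 were called.

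The ubiquitin system had 0 of 11 members without overlap between the genotypes, from Dcaf1, a substrate receptor of a ubiquitin ligase, at −0.06 to Fbxl2, an F-box protein, at 0.13. In the lists for chromatin and transcription (10 members) and for RNA processing, translation and tRNA (14 members), 2 and 3 lay lower and 1 and 2 higher. Hemk1 was the only call by DESeq2 in the first, and there was none in the second. Around Rassf1, 3 of 15 members lay lower and 2 higher, and Naa80 was the only call by DESeq2. Cacna2d2, a calcium channel subunit, was highest at 1.22 (adjusted p = 0.344 by edgeR), but its counts were too low for edgeR's own filter. Hyal1, Hyal3 and Sema3b, left out by the rule, also lie there, were higher without overlap and were called higher by DESeq2. Hyal2 and Sema3f, left out too, overlapped between the genotypes.

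By type, 36 of 186 protein-coding members (19.4%) lay lower and 20 (10.8%) higher without overlap, where all tested genes of any type gave 10.4% and 9.3%. The other types were few. Of 18 antisense RNAs, 4 lay lower and 3 higher, and of 12 pseudogenes, 3 lay lower and 0 higher. Exons of 113 members overlap another gene. Among the other 143, 25 (17.5%) lay lower and 12 (8.39%) higher without overlap, and 7 were called lower and 2 higher by DESeq2.

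Genes at the count minimum and at the ends of the stretch were also looked at. With at least 2 counts in exactly 5 libraries, 20 members were just inside the minimum, and 9 genes with at least 2 counts in 4 libraries were just outside, among them the pseudogene Gm5161 with 12, 8 and 10 counts in WT and 2, 1 and 1 counts in Plxnb1-/- cultures. Myl3, a myosin light chain, was the only gene under the minimum with at least 2 counts in all 3 libraries of 1 genotype and none in the other, and it had 2 counts in each Plxnb1-/- culture. At the edge of lower coordinates, Pik3cb, a catalytic subunit of phosphoinositide 3-kinase, was at 0.05, and Faim, the first tested gene outside, was at −0.06, both with overlap. At the other edge, Dlec1 was at 0.79 with overlap, and Acaa1b outside it was at 0.49 without overlap (adjusted p = 0.523 by edgeR). Of the 13 tested genes that the rule left out, Rpl29 and Hyal1 were called by edgeR. DESeq2 called Hyal1, Hyal3 and Sema3b higher and Rpl29, Trf and Col7a1 lower, and the counts of members do not include them. The balance of higher and lower calls among the members therefore depends on which genes the rule left out.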

How the data were processed

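Per the labels and the methods of the study, the authors trimmed reads with Trim Galore 0.6.5, aligned them to mm10 with Bowtie2 2.4.1, removed duplicates with SAMtools 1.10 and counted reads on exons with featureCounts against GENCODE. The authors deposited raw counts per gene, which were used here, and FPKM, which were not. Of 55401 genes listed, 55141 matched GENCODE by identifier without version. All 22318 genes with 2 counts or more in 5 or 6 libraries were fitted by genotype alone in edgeR 4.0.16 (TMM, quasi-likelihood test, R 4.3.3), with DESeq2 1.42.0 as the alternative, and p-values were adjusted over the whole table. Only members are printed. Counts cover all 256 members, but 1 of them is not reported here singly, nor is its back-to-back pair.

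Distances run to the nearest end of Plxnb1. CPM are TMM-scaled, and RPKM divide them by summed exon length. Copies were sought with blastn 2.17.0. Genes named are those called by either tool, the lowest p in each direction without overlap, the nearest and outermost members, the extremes of each list, and their overlapping or back-to-back partners, with Gpx1, Nck1, Gm5161, Myl3 and the sex chromosome genes added after seeing values. Members and lists were chosen with earlier results of these data known. A RefSeq promoter entry was found for 178 of 256 members and a mature sequence for 4 of 4 miRNA genes. Alternatives were other scalings, filters and dispersion estimates, the replicate number as a term, and each library left out.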

Additional observations from a re-analysis of the deposited data

How the results depend on the processing

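The numbers of called members depended most on the tool and the filter. DESeq2 called 3 higher and 12 lower, and edgeR without a filter on counts also called 3 higher and 12 lower, against 0 and 1. Calls over all genes change with the setting too. DESeq2 called 1.21% of them lower and 1.03% higher with all libraries, and 0.237% and 0.108% without PB1-KO replicate 3. Such shares were not counted without a filter or in most other fits named here, so these counts alone do not set the members apart. With each library left out, edgeR called 0 to 2 higher and 1 to 7 lower, and both upper values came without WT replicate 2. DESeq2 then called 1 to 4 higher and 7 to 12 lower, with the lowest values without PB1-KO replicate 3 (fits chosen after seeing the data). Members at an unadjusted p below 0.05 numbered 14 to 25 higher and 30 to 40 lower, with the lowest number higher without PB1-KO replicate 3. Members without overlap between the genotypes numbered 28 to 47 higher and 55 to 65 lower with 1 library fewer, where all genes rise too, and 12 higher and 25 lower among the 143 whose exons overlap no other gene. The median log2 fold change was −0.029 with upper-quartile factors, −0.016 without a filter on counts, −0.018 with edgeR's own filter (filterByExpr) and −0.024 without exon overlap, and −0.026 to −0.0094 with each library left out. Plxnb1 lost edgeR's call with robust dispersion (adjusted p = 0.22), with edgeR's own filter and without PB1-KO replicate 1, 2 or 3 or WT replicate 1. With each library left out, Cdc25a ranged from −0.030 to 0.076 and Dcaf1 from −0.096 to 0.0022, each changing sign once.

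Whether the numbers of the replicates pair the cultures is not given. Deviations from the group means correlated at −0.04, 0.05 and 0.13 for equal numbers, and between −0.17 and 0.14 for unequal numbers. With 3 libraries per genotype these values cannot decide it. With the replicate block, edgeR called 0 members higher and 1 lower, and 23 higher and 35 lower stood at an unadjusted p below 0.05. DESeq2 with the block called 3 higher and 8 lower, and of the 12 members called before that kept an adjusted p, Abhd14b alone lost the call (adjusted p = 0.0578). Depth limits the members at low counts: 20 of 256 had 2 counts or more in exactly 5 libraries, and DESeq2 gave an adjusted p to 173 of 256.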
